A study of Mus musculus with 24 samples.

Results

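Potassium channel genes were taken here as the protein-coding genes of the GENCODE M21 annotation (mm10) whose names start with Kcn, and their members are the CpGs of the methylation table that lie inside these genes or within 2 kb of them. After 3 genes had been left out, the annotation held 91 such genes, and 87 of them had at least 1 measured CpG. Kcne2, Kcnk7, Kcnrg and Kcnv2 had none. The 87 genes held 3793 of the 762137 CpGs in the table (0.498%), counting the cytosines of the opposite strands of a site separately. Of these, 2220 lay in promoters (within 1000 bases of the start of any transcript, 76 genes), 1390 in gene bodies (inside the gene and outside its promoters, 74 genes) and 183 in the flanks (31 genes). Membership rests on gene names and positions and uses no methylation value, but the family was chosen with earlier results of these data known.

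Potassium channels let potassium ions leave the cell along their gradient, which pulls the membrane back towards rest, ends action potentials and sets how readily a neuron fires. Voltage-gated alpha subunits open upon depolarization, inward rectifiers hold the resting potential and mediate inhibition by G-protein-coupled receptors, two-pore domain channels carry the leak current, and calcium- or sodium-activated channels link the potassium current to firing. Auxiliary subunits bind the pore-forming subunits and change their gating or their transport to the membrane. Granule cells of the dentate gyrus are known for a negative resting potential and sparse firing. CpG methylation is usually absent from CpG-rich promoters and high inside genes, and most CpGs that reduced representation bisulfite sequencing (RRBS) reads lie in CpG-rich DNA.

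The study isolated DNA from micro-dissected dentate gyrus of single female C57BL/6JRj mice and asked how aging and environmental enrichment (ENR, a large shared enclosure with tunnels and toys) act on DNA methylation. The 3 groups analysed here are Young STD (n = 5, aged 1.5 months, standard cages), Aged STD (n = 7, aged 14 months, standard cages) and Aged ENR (n = 7, aged 14 months, enriched from youth). Strain, sex and tissue were the same in all groups, and no genotype or agent differed between them. Young ENR mice were not analysed here. Per the study's methods, enriched mice lived together in an enclosure and standard mice in smaller cage groups, so housing and cage cannot be told apart.

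Each mouse had values at 2305 to 3608 of the potassium channel CpGs, with a minimum of 10 reads per value set by the study. Because read numbers are unknown, single values carry no interval. Which CpGs were measured differed between libraries. The average Young STD methylation of those CpGs that a mouse had values for, called the composition index here, was 30.5% to 32.1% in Young STD mice, 19.5% to 37.98% in Aged STD mice and 23.4% to 36.2% in Aged ENR mice. It was under 25% for 3 Aged STD mice and 1 Aged ENR mouse, and over 35% for 1 mouse of each aged group. Family means are therefore also given with the index in the model and for the 13 mice with an index of 25% to 35% (5 Young STD mice, 3 of Aged STD and 5 of Aged ENR), and single potassium channel regions at least where either of these moved a printed difference by over 1.5 times. Libraries also belonged to 2 series, numbered 27 (3, 4 and 4 mice of the groups above) and 37 (2, 3 and 3 mice). The table holds no expression values. The tissue label was looked at only through promoters of marker genes, where Prox1 and Rbfox3 of neurons averaged 2.18% and 1.91% in Young STD mice, against 55.4% at Mag of oligodendrocytes and 36.3% at Aldh1l1 of astrocytes, while Mbp and Cldn5 of other cells had 10.04% and 2.20%. In Aged STD mice Aldh1l1 had 24.2% (-12.2 points, SE 5.70, limma, adjusted p = 0.545). Mag, with 4 CpGs and 4 mice in each of these groups, had 42.1% (-13.2 points, SE 15.2, limma, adjusted p = 0.792). Aqp4 of astrocytes (16.2% in Young STD mice) differed by -1.92 points (SE 3.96), Mbp by -1.96 points (SE 1.46) and Tmem119 of microglia (13.0%) by -10.3 points (SE 7.95). Neurod2 and Camk2a of neurons (4.64% and 6.54%) differed by -2.53 and 0.328 points. The part of these markers in the results was not tested. Shares of cell types and methylation per cell cannot be told apart in such tissue.

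The sequences below carry the main patterns described here. They were read from GRCm38.p6 on the strand of the gene, and capitals mark the CpGs that were measured. The first, at chr1:15312623-15312836 on the plus strand, lies in a coding exon of Kcnb2, a delayed rectifier, and is shown because it was nearly fully methylated. The stretch upstream of the first Kcnb2 transcript start, at chr1:15286965-15287228 on the plus strand, is shown as an unmethylated promoter. The Kcne1l stretch (chrX:142305684-142305879, minus strand, coding exon) and the Kcnab2 stretch (chr4:152456879-152457111, minus strand, intron) lie in the regions whose differences were largest in the age comparison among regions with at least 5 CpGs and an unadjusted p under 0.05. These stretches were chosen after their values were seen, and no test was made on them.
Kcnb2 coding exon: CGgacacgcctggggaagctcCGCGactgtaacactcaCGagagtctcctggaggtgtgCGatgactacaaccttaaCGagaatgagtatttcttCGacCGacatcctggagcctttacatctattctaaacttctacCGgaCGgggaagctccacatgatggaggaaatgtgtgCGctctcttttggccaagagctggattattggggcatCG
Kcnb2 upstream: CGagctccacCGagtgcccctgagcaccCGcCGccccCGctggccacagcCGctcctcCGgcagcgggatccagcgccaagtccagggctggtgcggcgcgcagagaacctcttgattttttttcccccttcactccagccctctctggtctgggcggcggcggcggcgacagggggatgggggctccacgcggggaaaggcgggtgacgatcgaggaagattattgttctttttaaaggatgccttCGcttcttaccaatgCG
Kcne1l coding exon: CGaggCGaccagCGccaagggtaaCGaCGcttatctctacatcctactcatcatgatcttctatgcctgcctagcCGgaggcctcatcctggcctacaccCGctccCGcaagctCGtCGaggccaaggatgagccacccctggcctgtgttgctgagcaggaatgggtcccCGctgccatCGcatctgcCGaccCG
Kcnab2 intron: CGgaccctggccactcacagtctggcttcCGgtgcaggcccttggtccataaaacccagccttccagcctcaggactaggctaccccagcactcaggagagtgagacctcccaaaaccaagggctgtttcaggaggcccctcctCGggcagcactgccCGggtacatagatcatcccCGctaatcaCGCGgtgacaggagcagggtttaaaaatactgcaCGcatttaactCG

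Promoters of potassium channel genes were mostly unmethylated in Young STD mice, and gene bodies were not. Over single CpGs the Young STD mean was 5.96% in promoters (2220 CpGs) and 51.1% in bodies (1390 CpGs), next to 5.96% and 50.97% over all protein-coding genes. In promoters 87.25% of the CpGs had less than 10% methylation and 2.03% had more than 80%. In bodies 25.7% were under 10% and 36.55% were over 80%. Of the 61 genes with a value for both regions, 57 (93.4%) had more methylation in the body, with a median difference of 47.25 points. Over all protein-coding genes the share was 92.7% (7421 of 8004 genes) and the median 51.4 points, so that potassium channel genes had about the background share. The 4 exceptions, named after their values were seen, were Kcnn4, Kcnh2, Kcnab3 and Kcnc4.

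**Figure D1:**
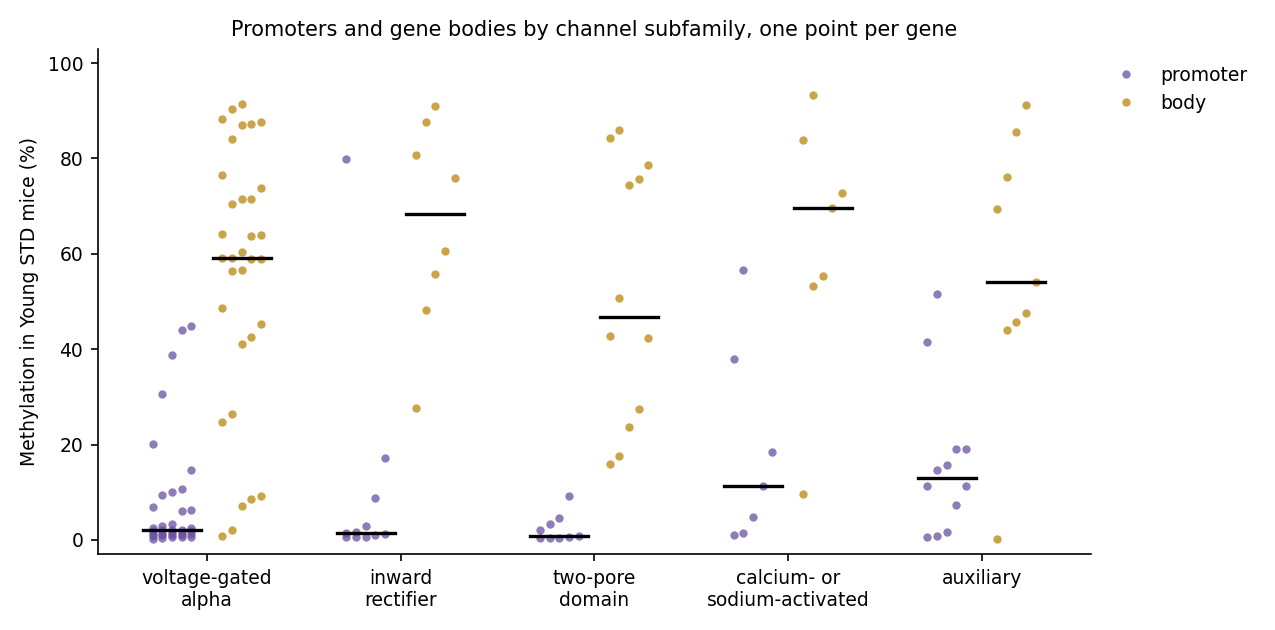
Mean methylation (%) of promoters and gene bodies in Young STD mice by channel subfamily, with each point a gene and each black bar the median over genes. Promoter medians lie between 0.900% and 13.0% and body medians between 46.7% and 69.7%.

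The promoter level differed between subfamilies, from a median of 0.900% over 9 two-pore domain genes to 13.0% over 12 auxiliary genes. Voltage-gated alpha subunits had a median of 2.08% over 35 genes, inward rectifiers 1.47% over 11 genes, and calcium- or sodium-activated channels 11.4% over 7 genes. Every two-pore domain promoter with a value was under 10%, whereas this held for 4 of 12 auxiliary promoters and 3 of 7 promoters of calcium- or sodium-activated channels. Over all potassium channel promoters 52 of 74 were under 10% (70.3%), against 78.1% of all protein-coding promoters. Body medians were 59.0% for voltage-gated alpha subunits, 68.3% for inward rectifiers, 46.7% for two-pore domain channels, 69.7% for calcium- or sodium-activated channels and 54.1% for auxiliary subunits. These are descriptions over genes, and no test was made between subfamilies. Body exceeded promoter in 29 of 31 voltage-gated, 6 of 6 inward rectifier, 9 of 9 two-pore domain, 5 of 6 calcium- or sodium-activated and 8 of 9 auxiliary genes.

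Along the genes, methylation was lowest next to the transcript start and highest far inside. In Young STD mice it averaged 3.39% ± 0.460 (SD, n = 5) in the 250 bases upstream of a start, 5.06% ± 0.607 in the first 250 bases downstream and 64.3% ± 2.07 beyond 20 kb. The profile differed from that of all protein-coding genes at several distances. Between 1 and 2 kb upstream, potassium channel genes had 17.1% ± 2.20 (130 CpGs of 20 genes) against 34.3% ± 1.26 over all protein-coding genes, and from 1 to 0.5 kb upstream 5.76% ± 1.52 against 14.5% ± 0.618. Between 1 and 2 kb downstream they had 14.5% ± 0.509 (220 CpGs of 27 genes) against 23.3% ± 0.955. From 2 to 5 kb downstream the order was the opposite, with 48.2% ± 3.17 against 42.5% ± 1.67. It was also the opposite from 250 to 500 bases downstream, with 10.2% ± 1.36 against 5.91% ± 0.269 over 357 CpGs of 44 genes. The SD is over mice and does not cover the small number of genes, and these differences from all genes were not tested. The sets also differ in how they were built. Over all genes, a CpG near several genes counted only at the gene whose promoter held it, where there was one. Potassium channel CpGs always kept their distance to the potassium channel gene. Of these, 123 also lay inside or at the promoter of another protein-coding gene, so the upstream values are not fully alike.

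**Figure D2:**
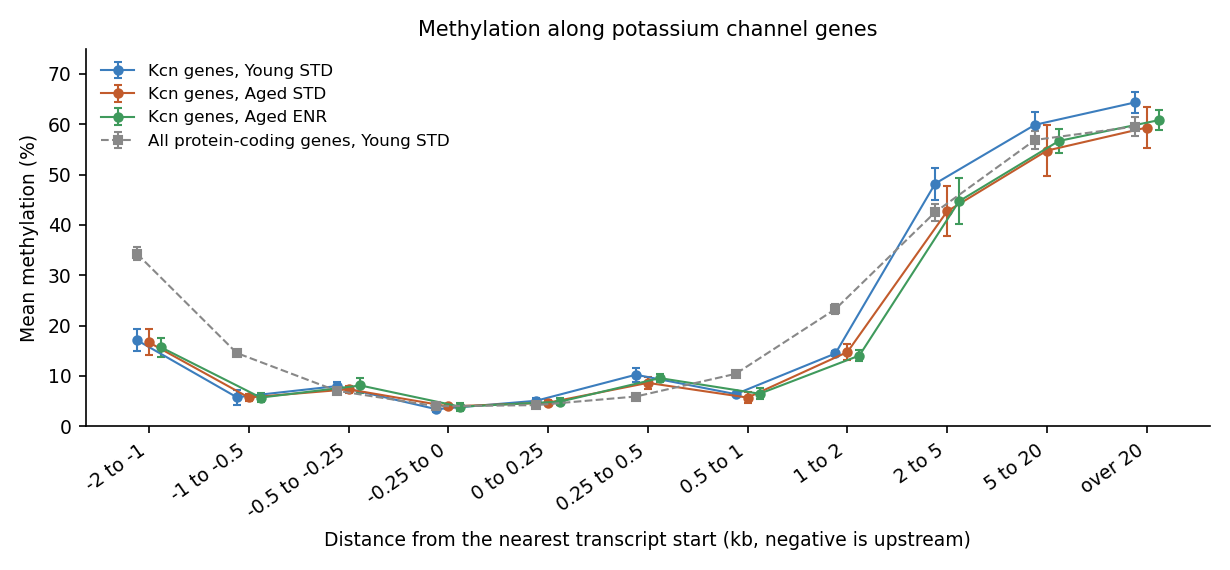
Mean methylation (%) of potassium channel CpGs by distance (kb) from the nearest transcript start in the 3 groups, with all protein-coding genes in Young STD mice in grey (points are means over mice, bars are SD). Levels are near 5% at the start and above 40% beyond 2 kb downstream, where the means of both aged groups lie below those of Young STD mice.

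Within bodies, introns carried more methylation than exons. Young STD means over single CpGs were 59.2% in introns (908 CpGs, 57 genes), 42.3% in coding exons (327 CpGs, 41 genes) and 22.8% in untranslated exons (133 CpGs, 23 genes). Within promoters, coding exons had 11.6% over 509 CpGs of 34 genes, against 7.25% in introns, 2.56% in untranslated exons and 2.46% outside the gene. Exons of transcripts without a coding sequence there had 16.8%, but over only 10 CpGs of 3 genes. Of the coding CpGs in promoters 78.6% were under 10% and 5.70% over 80%. Most values were therefore near 0% and the mean was carried by a minority of CpGs, among them those of Kcnb2 and Kcne1l.

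The letters CCGG, which read the same on both strands and are typical of the fragment ends in RRBS, occurred in 61 of 96 RefSeq promoter windows (GRCm38.p6) of these genes (63.5%), against 52.8% of all 32851 windows. Promoters with a CpG density under 0.4 of that expected from their base composition had a median of 11.4% (19 promoters), whereas 30 promoters between 0.4 and 0.6 had 1.77% and 20 between 0.6 and 0.8 had 2.28%. The corresponding medians over all protein-coding promoters were 9.66%, 2.22% and 1.51%.

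Among voltage-gated alpha subunits, the Young STD promoter was near 0% in channels that granule cells and axons are known for, and the bodies ranged widely. Such promoter levels are not particular to these channels. The median was 2.08% over all voltage-gated alpha subunits and 2.06% over all protein-coding promoters. Promoter levels were 1.18% ± 0.831 (SD, n = 5) at Kcna1 and 1.47% ± 1.33 at Kcna2, the low-threshold channels of axons, 0.521% ± 0.334 at Kcnd2, the A-type channel of dendrites, and 1.04% ± 1.22 and 0.665% ± 0.716 at Kcnq3 and Kcnq5, subunits of M-type channels. The bodies of the same genes had 2.10% ± 1.02 at Kcna1, 48.7% ± 8.30 at Kcna2, 64.05% ± 6.54 at Kcnd2, 59.0% ± 8.29 at Kcnq3 and 84.0% ± 4.97 at Kcnq5. Kcna1 thus stayed unmethylated also beyond its promoter, over 48 body CpGs. Kcnc1, a channel of fast-spiking neurons, had 6.99% ± 2.48 in the promoter and 60.5% ± 7.80 in the body. Kcnh1, an ether-a-go-go channel, had 9.43% ± 1.34 and 59.0% ± 3.75.

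Kcnb2 showed why a promoter mean needs its CpGs. Its promoter averaged 44.8% ± 1.95 in Young STD mice, the third highest of the autosomal promoters with at least 5 CpGs. The 9 CpGs of the printed upstream stretch, however, averaged 0.480% ± 0.686, with 0.000%, -0.170%, 1.59%, 0.492% and 0.492% in the 5 Young STD mice (values are centred per CpG and can fall slightly below 0% or above 100%). The 13 CpGs of the coding exon, which follows a second transcript start, had 95.9%, 97.1%, 91.2%, 91.6% and 88.6%. Both groups of CpGs were far apart in every mouse. The aged groups had 97.6% ± 3.18 (SD, n = 6, Aged STD) and 95.4% ± 3.95 (SD, n = 7, Aged ENR) in this exon.

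Inward rectifiers, two-pore domain and activated channels had promoter levels of 0.940% ± 0.294 (SD, n = 5) at Kcnj3 and 0.544% ± 1.27 (SD, n = 4) at Kcnj6, the channels gated by G proteins, and 8.87% ± 6.28 at Kcnj10, the channel through which astrocytes take up potassium. The bodies of these genes had 60.6% ± 6.60, 55.8% ± 6.98 and 48.3% ± 5.91. Kcnk1 and Kcnk2 of the leak channels had promoters at 0.330% ± 0.484 and 0.391% ± 0.598, with bodies at 16.0% ± 6.03 and 86.0% ± 2.58. The large-conductance channel Kcnma1 had 11.4% ± 2.16 in the promoter and 55.3% ± 4.36 in the body. Among the small-conductance channels, Kcnn2 and Kcnn3 had promoters at 1.50% ± 0.474 and 4.84% ± 1.33, whereas Kcnn1 had 18.5% ± 2.54, and their bodies had 72.8% ± 1.07, 53.2% ± 2.60 and 69.7% ± 11.5.

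The most methylated autosomal promoters with at least 5 CpGs were those of Kcnn4, Kcne1, Kcnb2, Kcna5 and Kcnt1. Kcnn4, an intermediate-conductance channel best known from blood and epithelial cells, had 57.0%, 64.8%, 54.6%, 63.7% and 42.9% in Young STD mice over 9 CpGs, against 9.60% ± 4.30 in the body. Its promoter lay above its body in all 5 mice, which is the opposite of the usual order. Kcne1, an auxiliary subunit of cardiac channels, had a promoter level of 51.5% ± 12.4 (SD, n = 4), Kcna5, a channel of the heart and of vessels, 38.8% ± 10.7 (SD, n = 4), and Kcnt1, a sodium-activated channel, 37.9% ± 5.56 (SD, n = 4). The other exceptions to the order of body and promoter had 30.7% in the promoter and 9.24% in the body at Kcnh2, a cardiac repolarization channel, 1.73% and 0.278% at Kcnab3, and 1.02% and 0.888% at Kcnc4.

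Averaged over the CpGs of the family measured in all mice, body means were lower in aged than in young mice and promoter means differed little. Protein-coding genes in general had differences of similar size. Over the 123 body CpGs measured in all mice (32 genes), the Young STD mean was 32.6% ± 2.12 (SD, n = 5). The Aged STD mean was 28.7% ± 3.28 (SD, n = 7), and the Aged ENR mean 29.5% ± 1.8 (SD, n = 7). The ranges of the 3 groups were 29.2% to 34.7%, 24.97% to 33.1% and 27.3% to 31.9%, and they overlapped in every comparison. The family mean differed by -3.86 points (SE 1.68) for Aged STD relative to Young STD, by -3.05 points (SE 1.13) for Aged ENR relative to Young STD and by 0.816 points (SE 1.42) for Aged ENR relative to Aged STD mice. The same differences over all protein-coding bodies were -4.37, -2.83 and 1.54 points. No test was made over the family, since its genes were chosen with results of these data known.

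Library composition moved with the age difference. With the composition index in the model, the body difference of Aged STD and Young STD mice was -1.71 points, that of Aged ENR and Young STD mice -2.39 points, and that of both aged groups -0.322 points. Among the mice with an index of 25% to 35% the 3 differences were -2.37, -3.09 and -0.722 points, so the sign of the housing difference depended on these choices. Within series 27 the body differences were -3.08 (Aged STD against Young STD), -2.42 (Aged ENR against Young STD) and 0.662 points (Aged ENR against Aged STD), and within series 37 they were -5.08, -4.06 and 1.02 points. The part of library composition in the age difference was not tested further.

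Promoter means over 225 CpGs of 40 genes were 3.62% ± 0.631 in Young STD, 3.15% ± 0.546 in Aged STD and 3.30% ± 0.374 in Aged ENR mice. All 3 ranges overlapped. The differences were -0.465 points (SE 0.340, Aged STD against Young STD), 0.142 points (SE 0.250, Aged ENR against Aged STD) and -0.323 points (SE 0.289, Aged ENR against Young STD). Within series 27 these were -0.284, 0.0350 and -0.249 points and within series 37 -0.755, 0.284 and -0.471 points. With the index in the model they were -0.252, 0.00206 and -0.140 points, and among mice with an index of 25% to 35% -0.549, 0.208 and -0.341 points. With each gene weighted equally they were -1.24 (SE 0.547), 0.887 (SE 0.490) and -0.350 points (SE 0.429). Over all protein-coding promoters the differences were -0.508, 0.202 and -0.305 points.

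**Figure D3:**
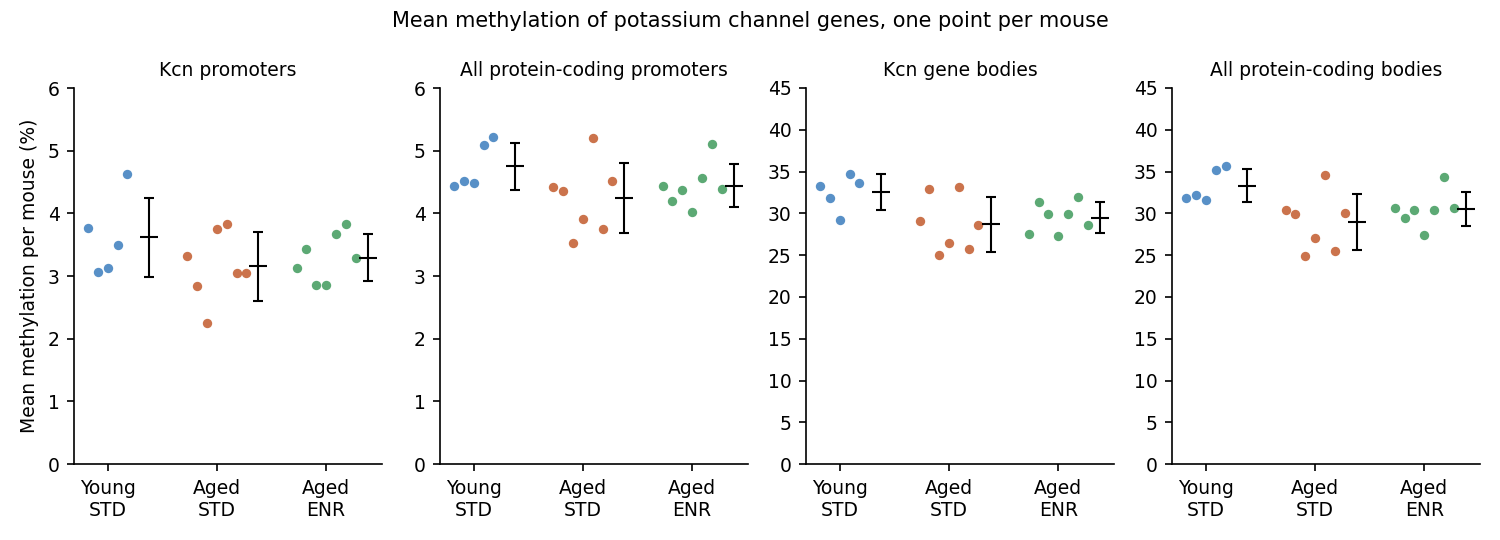
Mean methylation (%) per mouse over promoter and body CpGs of potassium channel genes measured in all mice, beside the same over all protein-coding genes (points are mice, black marks are group means with SD). Body means of potassium channel genes run from 24.97% to 33.1% in Aged STD and from 29.2% to 34.7% in Young STD mice, and the groups overlap in each panel.

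Gene by gene, body values were lower in Aged STD than in Young STD mice for 52 of 69 genes (75.4%), with a median difference of -4.07 points, next to 74.1% and -3.47 points over all protein-coding bodies. With the composition index in the model the medians were -0.933 and -1.41 points. Aged ENR bodies were lower than Young STD bodies for 51 of 68 genes (75%, median -2.62 points), beside 67.05% and -1.85 points over all protein-coding bodies. They were lower than Aged STD bodies for 25 of 68 genes (36.8%, median 1.17 points), and over all bodies the share was also 36.8% (median 1.21 points). These comparisons share the Aged STD or the Young STD mice, so they are not independent of each other. By subfamily, the median body difference for Aged STD relative to Young STD was -3.62 points over 33 voltage-gated genes (24 lower), -3.53 points over 8 inward rectifiers (5 lower), -4.64 points over 12 two-pore domain genes (10 lower), -1.40 points over 7 activated channels (5 lower) and -4.74 points over 9 auxiliary genes (8 lower). With the composition index in the model these medians were -0.996, -0.208, -1.04, -0.390 and -1.05 points in the same order. Introns of bodies averaged 59.4% ± 2.29 in Young STD, 53.1% ± 4.80 in Aged STD and 55.3% ± 2.16 in Aged ENR mice. Coding exons of bodies, which started from a lower level, had 42.5% ± 1.13, 41.3% ± 2.13 and 40.7% ± 1.78. Such means were not computed over all protein-coding genes or with the composition index. It is therefore unknown whether the larger difference in introns is particular to the family.

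Single genes were tested with limma over all promoters and bodies of protein-coding genes, with Benjamini-Hochberg adjustment over all regions tested. No region passed an adjusted p of 0.05 in any comparison, neither among potassium channel genes (0 of 142, 0 of 141 and 0 of 142 regions) nor among all protein-coding genes (0.0%, 0.0% and 0.0% called). The lowest adjusted p of a potassium channel region was 0.282 for Aged STD against Young STD, 0.946 for Aged ENR against Aged STD and 0.314 for Aged ENR against Young STD (limma). At an unadjusted p under 0.05, 14 of 142 regions (9.86%) were lower in Aged STD than in Young STD mice, where 7.74% of all regions were, and 5 (3.52%) were higher, where 1.44% were. With the composition index in the model these counts were 8 lower and 8 higher, and over all 23481 regions they went from 1817 lower and 337 higher to 928 and 699. For Aged ENR against Aged STD mice 8 of 141 (5.67%) were lower against 1.54% of all regions and 5 (3.55%) were higher against 3.16%. For Aged ENR against Young STD mice 9 of 142 (6.34%) were lower against 5.47% and 8 (5.63%) were higher against 1.7%. With the index in the model, Aged ENR against Aged STD had 6 lower and 4 higher (630 and 577 over all 23472 regions). Aged ENR against Young STD then had 9 lower and 10 higher (908 and 623 over all 23580 regions). With plain means of the measured CpGs, not centred per CpG, each of these 2 comparisons had 3 lower and 4 higher. Over all regions these were 274 and 569, and 1116 and 301. Some of the regions described below are among those with the largest differences at this unadjusted threshold. Others come from a fixed list of channels or are X-linked, and not all of those met the threshold. None of the regions passed after adjustment.

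**Figure D4:**
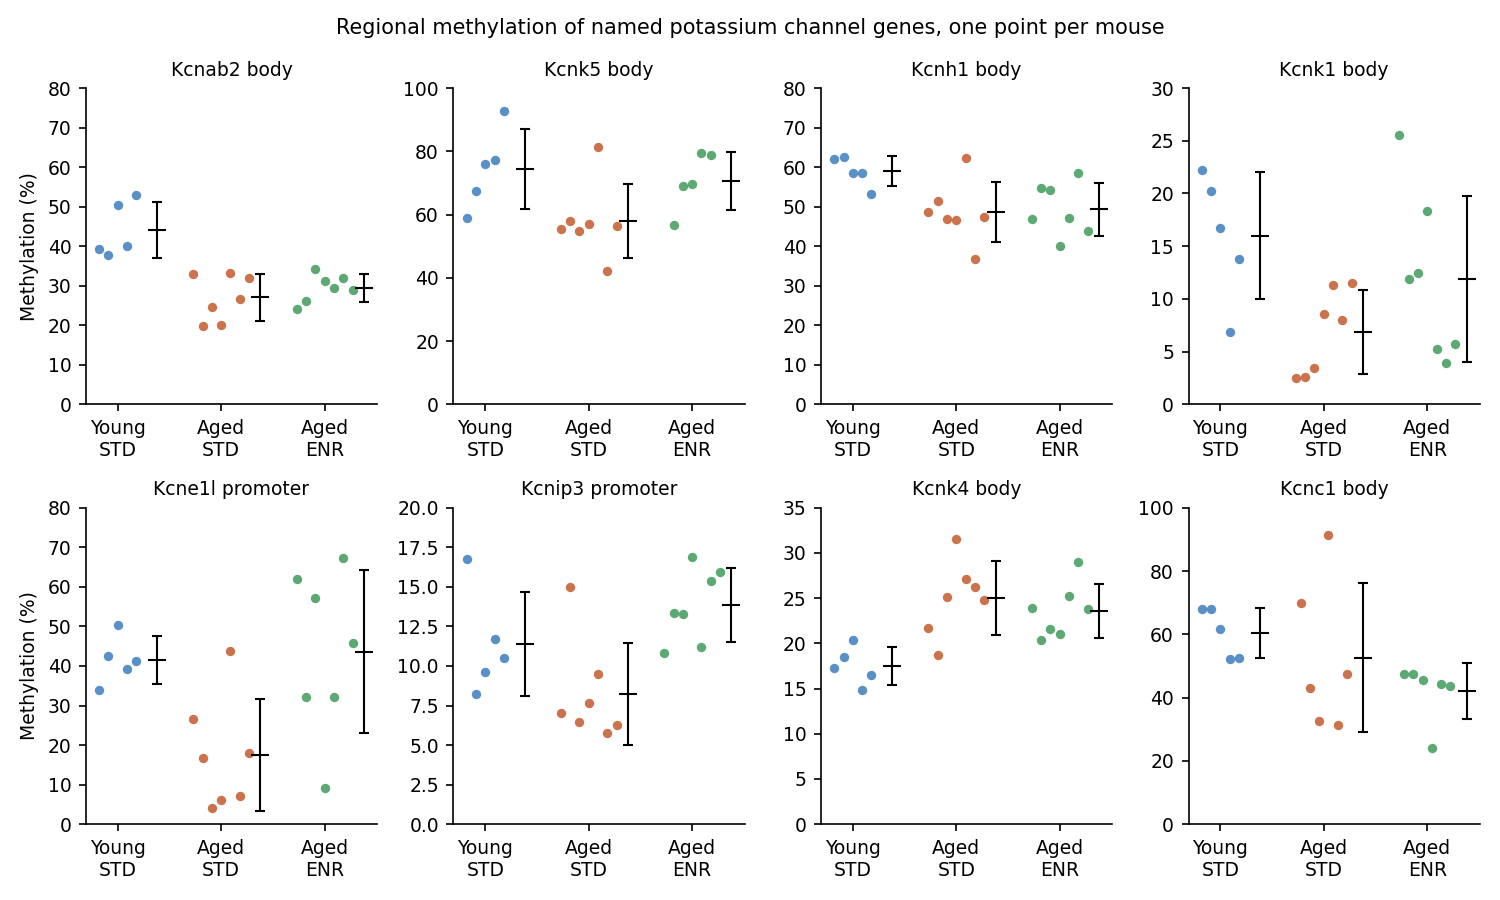
Methylation (%) of promoters or bodies of 8 named potassium channel genes, with each point a mouse and black marks the group means with SD (the vertical scale differs between panels). All Aged STD and Aged ENR points of the Kcnab2 body lie below all Young STD points, and no region passed the test after adjustment.

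The body of Kcnab2 had the lowest adjusted p of the family in the age comparison. Kcnab2 encodes a beta subunit that helps to bring Kcna channels to the axon. Over 40 CpGs (gene at chr4:152390742-152477871, minus strand) the Young STD mice had 39.3%, 37.7%, 50.4%, 39.9% and 52.9%. The Aged STD mice had 19.8% to 33.2% with a median of 26.6%, and the Aged ENR mice 24.0% to 34.2% with a median of 29.3%. Both aged groups lay below all Young STD mice and overlapped with each other. The difference from Young STD mice was -17.0 points in Aged STD (SE 3.92, limma, adjusted p = 0.282) and -14.6 points in Aged ENR mice (SE 3.34, limma, adjusted p = 0.314). With the composition index in the model these were -14.3 and -14.5 points, and among mice with an index of 25% to 35% -15.7 and -15.5 points. Within series 27 they were -18.1 and -13.6 points and within series 37 -15.8 and -16.3 points. Both aged groups differed from each other by 2.35 points, by 1.15 points with the index in the model and by 0.209 points among mice with an index of 25% to 35%.

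Within Kcnab2, 10 CpGs of the printed intron stretch, which lies upstream of the start of a shorter transcript, were part of this pattern. The Young STD mice had 25.9%, 33.2%, 55.2%, 42.5% and 44.4% there. The Aged STD mice had 2.38% to 36.0% with a median of 23.4%, and the Aged ENR mice had 12.1% to 23.8% with a median of 19.01%. All 10 CpGs had a lower mean in both aged groups than in Young STD mice. Over the mice, Aged ENR and Young STD values did not overlap, whereas Aged STD values did. The Kcnab2 promoter had 11.3% ± 4.63, 10.6% ± 2.07 and 10.04% ± 3.85 in the 3 groups (Young STD, Aged STD, Aged ENR).

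Kcne1l (also Kcne5) and Kcnd1 lie on the X chromosome, of which female cells silence a copy. Kcne1l encodes a small auxiliary subunit, and its promoter set is the 15 CpGs of the printed coding exon. The Young STD mice had 33.9%, 42.5%, 50.4%, 39.2% and 41.3%. The Aged STD mice had 4.09% to 43.9% with a median of 16.7%, and the Aged ENR mice 9.20% to 67.2% with a median of 45.7%. Aged STD values were mostly below and Aged ENR values on both sides of the young range, and all ranges overlapped. The differences were -24.0 points for Aged STD against Young STD (SE 6.32, limma, adjusted p = 0.325), 26.2 points for Aged ENR against Aged STD (SE 8.70, limma, adjusted p = 0.946) and 2.16 points for Aged ENR against Young STD mice. Among regions of the family with at least 5 CpGs and an unadjusted p under 0.05, the first 2 are the largest differences of their comparisons.

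The Kcne1l values moved with library composition. The 3 Aged STD mice with an index under 25% had 4.09%, 5.98% and 7.08%, the Aged ENR mouse under 25% had 9.20%, and the mice over 35% had 43.9% (Aged STD) and 67.2% (Aged ENR). With the index in the model the differences were -14.4, 18.9 and 9.89 points. Without these 6 mice they were -21.0, 25.35 and 4.34 points, which is close to the values over all mice. Within series 27 they were -28.95, 26.8 and -2.18 points and within series 37 -17.2, 25.3 and 8.10 points. The part of library composition in these values was not tested further. Kcnd1, an A-type channel, had 44.1% ± 18.1, 29.3% ± 16.1 and 28.8% ± 22.2 in 3 promoter CpGs. In 4 body CpGs it had 69.4%, 61.0% and 84.2% in 3 Young STD mice, 86.0% to 100% in 5 Aged STD mice and 66.4% to 90.4% in 6 Aged ENR mice (Aged STD against Young STD 20.9 points, SE 5.99, limma, adjusted p = 0.408). This difference was 30.2 points in series 27 and 3.77 points in series 37, where only 1 Young STD mouse had a value.

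Leak channels held differences in both directions. The body of Kcnk5, a channel opened by alkaline pH, had 58.8%, 67.4%, 76.1%, 77.1% and 92.7% in Young STD mice, 42.3% to 81.4% with a median of 56.2% in Aged STD mice, and 56.7% to 79.5% in 5 Aged ENR mice. Young and Aged STD mice overlapped, and their difference was -16.6 points (SE 6.59, limma, adjusted p = 0.489), with -11.15 and -24.93 points in series 27 and 37. It was -9.62 points once the index was in the model and -17.9 points among mice with an index of 25% to 35%. At Kcnk1 the body had 22.2%, 20.3%, 16.7%, 6.88% and 13.8% in Young STD and 2.52% to 11.5% in Aged STD mice, a difference of -9.14 points (SE 2.69, limma, adjusted p = 0.373). This difference was -15.5 points in series 27 and -0.0785 points in series 37, so it did not hold within series 37.

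Kcnk4, a mechanosensitive leak channel, had higher body values in aged mice. Young STD mice had 17.3%, 18.5%, 20.4%, 14.8% and 16.5% over 30 CpGs, Aged STD mice 18.7% to 31.6% with a median of 25.1%, and Aged ENR mice 20.3% to 29.0% with a median of 23.8%. The young range reached 20.4% and overlapped slightly with both aged groups. The differences from Young STD mice were 7.51 points in Aged STD (SE 2.45, limma, adjusted p = 0.419) and 6.06 points in Aged ENR mice (SE 2.08, limma, adjusted p = 0.550). They were 5.53 and 2.99 points in series 27 and 10.35 and 10.35 points in series 37, and 6.60 and 7.29 points with the composition index in the model. Among mice with an index of 25% to 35% they were 4.24 and 5.47 points. At Kcnk3, an acid-sensitive leak channel, the body of Aged ENR mice was 6.59 points above Young STD mice (44.6% to 56.7% against 38.6% to 44.7%, SE 2.64, limma, adjusted p = 0.634), 5.14 and 8.39 points in series 27 and 37.

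Among voltage-gated channels, the body of Kcnh1 had 62.1%, 62.7%, 58.6%, 58.5% and 53.3% in Young STD mice, 36.7% to 62.3% with a median of 47.4% in Aged STD mice and 40.0% to 58.4% with a median of 47.1% in Aged ENR mice. The groups overlapped. The differences from Young STD mice were -10.5 points (SE 3.96, limma, adjusted p = 0.473) and -9.69 points (SE 3.53, limma, adjusted p = 0.592), and -5.98 and -7.76 points with the composition index in the model. Within series 27 they were -12.75 and -12.1 points and within series 37 -7.10 and -6.14 points. The Kcnc1 body, with 7 CpGs, had 68.0%, 67.9%, 61.7%, 52.3% and 52.5% in Young STD mice, 31.5% to 91.4% in 6 Aged STD mice and 24.1% to 47.6% in 6 Aged ENR mice. Aged ENR values lay below all Young STD values (-18.3 points, SE 4.96, limma, adjusted p = 0.438, -19.01 and -14.95 points in series 27 and 37), and Aged STD values lay on both sides.

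Promoters of other voltage-gated genes differed by less. Kcna7, a channel first described in muscle and heart, had 10.1% ± 1.44, 9.58% ± 3.25 and 5.75% ± 3.46 in the 3 groups, and Aged ENR differed from Young STD mice by -4.32 points (SE 1.603, limma, adjusted p = 0.603, with -2.58 and -6.76 points in series 27 and 37). Kcng3, a silent subunit that modifies other voltage-gated subunits, had 0.674% ± 0.202, 0.789% ± 0.449 and 2.27% ± 1.61, and its difference between both aged groups was 1.48 points (SE 0.632, limma, adjusted p = 0.946, with 1.46 and 1.50 points in the series). Single mice reached 15.1% at Kcna7 and 4.28% at Kcng3.

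Housing of aged mice was further compared at the auxiliary gene Kcnip3, whose product binds Kcnd channels and calcium. Its promoter had 16.8%, 8.24%, 9.64%, 11.7% and 10.5% in Young STD mice, 5.76% to 15.02% with a median of 6.999% in Aged STD mice, and 10.8% to 16.9% with a median of 13.3% in Aged ENR mice. A single Aged STD mouse at 15.02% overlapped with the Aged ENR mice. The difference between both aged groups was 5.61 points (SE 1.59, limma, adjusted p = 0.946), with 4.55 points in series 27, 7.02 points in series 37 and 3.503 points among mice with an index of 25% to 35%. The Kcnip3 body had 54.1% ± 4.30, 47.8% ± 11.7 and 46.1% ± 4.33, a difference of -7.95 points between Aged ENR and Young STD mice (SE 2.98, limma, adjusted p = 0.608, with -6.64 and -10.1 points in the series).

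Channels grouped by name as calcium- or sodium-activated differed in both directions as well. The Kcnn4 promoter had 58.5% to 82.0% in 5 Aged STD and 52.5% to 82.1% in 7 Aged ENR mice, overlapping with the young values given above. Aged STD differed from Young STD mice by 13.1 points (SE 5.81, limma, adjusted p = 0.534), with 7.85 and 28.7 points in series 27 and 37. The value of series 37 rests on 1 Aged STD mouse. The Kcnn4 body differed by -5.53 points between Aged ENR and Aged STD mice (3.09% to 11.9% against 8.98% to 17.4%, SE 1.61, limma, adjusted p = 0.946, with -3.77 and -7.88 points in the series). The Kcnn3 body had 53.2% ± 2.60, 44.2% ± 7.42 and 50.5% ± 8.56, and the difference of -9.07 points for Aged STD relative to Young STD mice (SE 3.82, limma, adjusted p = 0.507, -9.06 and -9.32 points in the series) was -3.94 points with the composition index in the model and -4.75 points among mice with an index of 25% to 35%. Its promoter differed by -2.35 points (SE 0.957, limma, adjusted p = 0.493, with -3.17 and -1.18 points in the series). The Kcnn1 body rested on 3 CpGs and had 69.7% ± 11.5 (SD, n = 4), 68.3% ± 8.45 (n = 4) and 83.3% ± 4.92 (n = 6), with 15.04 points between both aged groups (SE 4.33, limma, adjusted p = 0.946, with 27.65 and 9.21 points in the series). The value of 27.65 points in series 27 rests on 1 Aged STD mouse. Kcnu1, a channel of sperm, had a body level of 83.9% ± 7.05, 86.2% ± 11.3 and 90.8% ± 3.82, and Aged ENR mice were 6.92 points above Young STD mice (SE 3.18, limma, adjusted p = 0.693, with 4.99 and 9.69 points in the series). The Kcnma1 body had 55.3% ± 4.36, 43.8% ± 12.9 and 48.9% ± 5.48 in the 3 groups. Its difference of Aged STD from Young STD mice was -11.5 points, and -5.87 points among mice with an index of 25% to 35%. That of Aged ENR from Aged STD mice was 5.08 points, and -0.634 points among these mice.

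Among inward rectifiers, the Kcnj10 body had 42.2%, 45.7%, 45.5%, 57.4% and 50.5% in Young STD, 28.9% to 48.4% in Aged STD and 30.3% to 46.1% in Aged ENR mice. The ranges overlapped, and the difference between Aged ENR and Young STD mice was -8.03 points (SE 3.53, limma, adjusted p = 0.677, with -5.41 and -12.2 points in the series). That of Aged STD from Young STD mice was -8.64 points (SE 4.26, limma, adjusted p = 0.566, with -5.32 and -13.7 points in the series), and it was -4.33 points with the index in the model and -2.33 points among mice with an index of 25% to 35%. The Kcnj3 body, with 4 CpGs, had 60.6% ± 6.60, 46.0% ± 12.9 and 53.5% ± 7.72, and its difference of -14.6 points for Aged STD relative to Young STD mice (SE 6.02, limma, adjusted p = 0.495, with -8.66 and -23.0 points in the series) was -8.75 points with the index in the model and -4.66 points among mice with an index of 25% to 35%. Kcnj8, the pore of a channel closed by ATP in vessels, had a promoter at 1.13% ± 0.991, 3.42% ± 2.23 and 2.41% ± 4.16 (Aged STD against Young STD 2.29 points, SE 1.02, limma, adjusted p = 0.527, with 2.04 and 2.68 points in the series). The Kcnj15 body, highly methylated at 91.0% ± 2.79 in Young STD and 94.5% ± 3.90 (n = 6) in Aged STD mice, had 83.7% ± 9.58 in Aged ENR mice, and both aged groups differed by -10.8 points (SE 4.10, limma, adjusted p = 0.946, with -16.35 and -4.03 points in the series).

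At single CpGs no difference passed the call rule of the study's size threshold (an adjusted p under 0.05 and more than 25 points, limma). The counts were 0 of 2538 potassium channel CpGs for Aged STD against Young STD, 0 of 2601 for Aged ENR against Aged STD and 0 of 2509 for Aged ENR against Young STD mice, and 0.0%, 0.0% and 0.0% of all CpGs were called. At an unadjusted p under 0.05 there were 107, 59 and 101 of them, which is 4.22%, 2.27% and 4.03% beside 4.42%, 2.25% and 3.95% of all CpGs. By size alone, 187 CpGs (7.37%) were over 25 points lower and 52 (2.05%) over 25 points higher in Aged STD than in Young STD mice, against 7.19% and 2.17% of all CpGs. In Aged ENR against Aged STD mice 69 (2.65%) were lower and 120 (4.61%) higher, against 2.62% and 4.53%. In Aged ENR against Young STD mice 140 (5.58%) were lower and 61 (2.43%) higher, against 5.21% and 2.39%. Potassium channel CpGs were close to the background in all of these shares.

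Among CpGs measured in every mouse compared, the group ranges did not overlap at 3 of 457 (0.656%) for Aged STD against Young STD, at 0 of 443 for Aged ENR against Aged STD and at 2 of 482 (0.415%) for Aged ENR against Young STD mice. Over all such CpGs the shares were 0.432%, 0.0162% and 0.323%. All 5 were lower in the aged mice, and their surroundings on the strand of the gene (GRCm38.p6) are shown with the CpG in capitals, since they are the CpGs with values in every mouse compared that separated the groups.
Kcna1 exon, chr6:126643855-126643884, minus strand: tccatcgatcgcccCGgtgggagcttagaa
Kcnip3 intron, chr2:127520714-127520743, minus strand: ggcaaagaggcaccCGgtacaaagttcaag
Kcnj10 intron, chr1:172359624-172359653, plus strand: cagacctcattagcCGgatggcaaggtctt
Kcnab2 intron, chr4:152456908-152456937, minus strand: ccccgctaatcacgCGgtgacaggagcagg
Kcnma1 intron, chr14:23718876-23718905, minus strand: gagaggcctgagggCGtgagatactcatat

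The Kcnip3 CpG had 26.9%, 17.4%, 29.9%, 13.1% and 25% in Young STD and 1.31% to 12.3% with a median of 6.49% in Aged STD mice (-15.5 points, SE 4.46, limma, adjusted p = 0.760). The Kcnj10 CpG had 48.4%, 72.2%, 61.8%, 58.7% and 49.2% against 0% to 48.3% with a median of 43.8% (-25.2 points, SE 13.9, limma, adjusted p = 0.760). The Kcna1 CpG had 11.8%, 5.71%, 2.08%, 50% and 8.70% against 0% to 1.96%, so that its difference of -15.4 points (SE 6.69, limma, adjusted p = 0.760) rested largely on a single young mouse at 50%. The groups at Kcnip3, Kcnj10 and Kcna1 were each separated only by a narrow gap.

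In the third comparison, Aged ENR against Young STD, the Kcnab2 CpG had 31.2%, 61.5%, 88.9%, 52.9% and 65.9% in Young STD and 0% to 27.8% with a median of 23.1% in Aged ENR mice (-42.7 points, SE 13.3, limma, adjusted p = 0.776). It belongs to the printed intron stretch, so it is not separate evidence for it. The Kcnma1 CpG had 35.9%, 59.2%, 53.9%, 54.0% and 61.9% against 0% to 35.4% with a median of 16.9% (-33.7 points, SE 12.3, limma, adjusted p = 0.776). Neither CpG passed after adjustment, and at Kcnma1 the groups were separated only by a narrow gap.

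Agreement between strands gives a sense of the error of a single value. At 349 potassium channel sites measured on both strands, the strands of a site differed within a mouse with an SD of 15.35 points (mean over mice). At the 29 sites with a mean of 20% to 80% the SD was 36.1 points, from 20.6 to 52.1 points across mice, close to the 36.8 points over all CpGs.

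Genes of proteins that bind potassium channels (23 genes such as Dpp6, Dpp10, Cntnap2, Dlg1, Dlg4, Lgi1 and Abcc8) had a median body difference of -4.82 points for Aged STD relative to Young STD mice, with 13 of 16 bodies lower, of which 4 were below an unadjusted p of 0.05 and 0 passed after adjustment (limma). Over all protein-coding bodies 74.1% were lower, and 1180 of 9585 were lower at this unadjusted p. The largest was Lgi1, a secreted protein that tunes Kcna channels at synapses, whose body (7 CpGs) had 49.2% to 68.2% in 5 Young STD mice, 14.9% to 41.9% in 6 Aged STD mice and 29.7% to 50.6% in 7 Aged ENR mice. Young STD and Aged STD values did not overlap (-31.7 points, SE 5.31, limma, adjusted p = 0.166). The scaffold gene Dlg1 had a body difference of -24.7 points (SE 4.44, limma, adjusted p = 0.184) and Dlg4 of -8.09 points (SE 1.84, limma, adjusted p = 0.270). Abcc8, the sulfonylurea receptor of channels closed by ATP, had -12.4 points (SE 4.87, limma, adjusted p = 0.487). Calcium, sodium and HCN channel genes (44 genes, 2713 CpGs) had 30 of 39 bodies lower and a median of -4.65 points. Without the composition index this was close to the -4.07 points of potassium channel bodies. With the index in the model the medians were -2.003 points for calcium, sodium and HCN channels and -0.933 points for potassium channels. Genes of the binding proteins then had -2.196 points, and all protein-coding bodies -1.41 points. Differences between these gene lists were not tested.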

How the data were processed

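RRBS libraries were sequenced by the authors as single-end reads, trimmed (Trim Galore 0.4.0 and cutadapt 1.8.1 per the labels), aligned to mm10 with Bismark 0.16.1 and summarised with methylKit 1.5.2. The deposited table holds the percent of methylated reads per cytosine and mouse, with at least 10 reads per value, extreme coverage removed and at least 3 mice per group. Read numbers are not in it, so neither coverage nor the read-based test of the study could be used.

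Of 762182 cytosines, 762137 lay in a CpG of GRCm38 (mm10). Genes came from GENCODE M21 and promoters span 1000 bases on either side of any transcript start. The value of a region in a mouse is the mean over at least 3 measured CpGs, centred per CpG. CpGs and regions were tested with limma 3.58.1 (two-sided, variance trend, groups compared only) with Benjamini-Hochberg adjustment over all CpGs or regions tested, with CpG calls needing an adjusted p under 0.05 and over 25 points. This code was checked on simulated data. Tests measure the spread between single mice.

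The members and gene lists were chosen with earlier results of these data known. Genes were named by rule: the 3 largest differences in each direction per comparison among regions with at least 5 CpGs and an unadjusted p under 0.05, a fixed list of channels, X-linked members, the 5 most methylated autosomal promoters, and CpGs whose groups did not overlap. Other names were chosen after values were seen. Alternatives were library series, composition index or replicate number in the model, 3 groups in a fit, no variance trend, a logit scale, CpGs measured in all mice, other filters, widths and weights, and each mouse left out. The restriction to mice with an index of 25% to 35% was added after the data had been seen. Sequences were read from GRCm38.p6, and promoter windows are from RefSeq (71 Kcn genes matched). Young ENR mice and 3 Kcn genes were not analysed here, and some members named by the rule count in the totals but are not reported singly. Python 3.11.15 (numpy 2.4.6, scipy 1.17.1, pandas 2.3.3, matplotlib 3.10.9) and R 4.3.3 were used.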

Additional observations from a re-analysis of the deposited data

Results flagged for a closer look

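A mouse lay far from the others of its group (Dixon's test at the 95% level) in 20 of 164 groups of named regions, where chance flags about 1 in 20 groups. Among bodies, these were Kcnk5 at 81.4% in Aged STD replicate 5 (the others 42.3% to 58.0%), Kcnj15 at 86.7% in Aged STD replicate 6 (94.9% to 97.4%), Kcnn4 at 17.1% in Young STD replicate 5 (6.72% to 9.21%), Kcnc1 at 24.15% in Aged ENR replicate 5 (43.8% to 47.6%) and Kcnk2 at 81.5% in Young STD replicate 5 (86.6% to 87.9%). Further bodies were Kcnj3 at 49.3% in Young STD replicate 3 (60.4% to 64.6%), Kcnn3 at 68.2% in Aged ENR replicate 6 (43.7% to 52.9%), Kcnma1 at 47.55% in Young STD replicate 2 (56.4% to 57.7%) and Kcnn2 at 64.9% in Aged STD replicate 6 (71.3% to 73.5%).

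Among promoters with low levels, the outlying mice had 11.6% at Kcnj8 (Aged ENR replicate 7), 15.02% at Kcnip3 (Aged STD replicate 2), -2.23% at Kcnj10 (Aged ENR replicate 7), 15.7% and 1.51% at Kcnh1 (Aged STD replicate 4 and Aged ENR replicate 3) and 5.39% at Kcnj3 (Aged STD replicate 1). The others had 7.60% at Kcna2 (Aged ENR replicate 5), 3.43% at Kcnk1 (Aged ENR replicate 2), 2.79% at Kcnq3 (Aged ENR replicate 6), and 2.45% and 6.74% at Kcnj6 (Young STD replicate 4 and Aged STD replicate 2). Values slightly below 0% come from the centring per CpG.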

How the results depend on the processing

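With each gene weighted equally, the promoter difference of the family was -1.24 points for Aged STD against Young STD and 0.887 points for Aged ENR against Aged STD mice. Without a variance trend, 1 potassium channel CpG was called for Aged STD against Young STD, in an intron of Kcnk5 (chr14:20159513, -48.3 points, SE 3.45, limma, adjusted p = 0.0195), where 3 Young STD mice had 40.9% to 56.0% and 5 Aged STD mice had 0%. Under this setting 120 of all 527578 CpGs were called, beside 1 of 2538. No region and no other CpG passed the limit of 25 points under any alternative. With a limit of 10 points, 1 CpG also passed with 3 groups in a fit (in both comparisons with Young STD) and 1 without a variance trend for Aged ENR against Young STD mice. Leaving out each mouse in turn gave body differences of -4.69 to -3.24 (Aged STD against Young STD), 0.195 to 1.55 (Aged ENR against Aged STD) and -3.87 to -2.50 points (Aged ENR against Young STD), and promoter differences of -0.603 to -0.214, -0.0102 to 0.253 and -0.461 to -0.0721 points, with the sign of the promoter difference between both aged groups turned without Aged STD replicate 3. The body difference between both aged groups turned to -0.322 points with the composition index in the model and to -0.722 points among mice with an index of 25% to 35%. The promoter difference of Aged ENR against Young STD turned to 0.00465 points with all CpGs and to 0.0801 points with narrower promoters (500 bases). Replicate numbers did not pair the mice, since 0 of the same-numbered pairs correlated above 0.1 in their deviations from the group means. With the replicate block, 0 CpGs and 0 regions were called, and the body differences were -3.24, 0.816 and -3.34 points, the promoter differences -0.423, 0.142 and -0.427 points. Depth is unknown and limits single CpGs most. The counts of regions at an unadjusted p under 0.05 changed with the index in the model from 14 lower and 5 higher to 8 and 8 for Aged STD against Young STD, and over all regions from 1817 lower and 337 higher to 928 and 699. The cause was not tested.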
